A study of Mus musculus with 21 samples.

Results

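The collagen chain genes are the genes that encode the alpha chains of collagens, taken here as every row of the deposited count table whose symbol reads Col, a number, a and a number, and whose mean count over the 21 mice was 10 or more. That rule kept 37 of the 44 collagen chain symbols in the table, among 55450 genes in all. The 37 comprised 9 fibrillar chains, 6 basement membrane chains and 22 other chains. Of these 22, 5 were beaded filament chains, 6 were FACIT chains (fibril-associated collagens with interrupted triple helices), 2 were short chains, 2 were multiplexins, 4 were transmembrane chains and 3 were anchoring or remaining chains. Col9a2, Col26a1 and Col17a1 lay just inside the limit, with mean counts of 11.1, 11.5 and 13.3, and Col9a3 lay just outside it at 9.67. Below it were also Col24a1, Col6a4, Col9a1, Col2a1, Col19a1 and Col10a1, with mean counts between 0.29 and 5.81. All 37 passed the filter on low counts that preceded the tests.

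RNA was sequenced in bulk from the frozen left ventricle of male mice on a 129S6/SvEv background. R403Q mice carry 1 copy of a mutant cardiac myosin heavy chain allele, Myh6+/R404Q in the labels, which models hypertrophic cardiomyopathy, and WT mice were their wild-type littermates. A control diet (CD) or that diet with empagliflozin (EMPA), an inhibitor of the renal sodium-glucose cotransporter SGLT2, at 0.15 mg per g of diet, gave 5 WT-CD, 7 R403Q-CD, 4 R403Q-EMPA and 5 WT-EMPA mice. The study's methods place this RNA at 12 weeks of age after 2 weeks of diet, whereas the labels give 16 weeks of treatment, and each diet was fed in its own cages (4 CD and 3 EMPA cages), so that diet and cage cannot be told apart.

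Collagens are triple helices of alpha chains. The fibrillar chains build the tensile fibers of the interstitium that thicken in myocardial fibrosis and come mostly from fibroblasts, while type IV chains form the sheet-like network of the basement membranes around cardiomyocytes and capillaries. Most other chains decorate or link these networks. In bulk tissue more cells of a type and more RNA per cell cannot be told apart.

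Several chains whose proteins assemble together lie side by side in the genome (GRCm38). Col4a1 and Col4a2, the alpha 1 and alpha 2 chains of the ubiquitous type IV trimer, start head to head and overlap by 22 bases at chr8:11312805-11312826. Col4a4 and Col4a3 also start head to head, 71 bases apart, at chr1:82586850-82586920. Both stretches are shown on the plus strand, from RefSeq windows of GRCm38.p6, because the 2 pairs stood at different levels in 1 mouse described below. Capitals mark the letters GGGCGG (a GC box) on either strand.
Col4a2 and Col4a1, overlap of the first exons: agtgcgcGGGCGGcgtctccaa
Col4a4 to Col4a3, bases between the starts: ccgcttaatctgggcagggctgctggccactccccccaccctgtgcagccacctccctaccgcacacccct

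The 150 bases before the starts of Col3a1 (chr1:45311388-45311537, plus strand), Col8a1 (chr16:57754738-57754887, minus strand) and Col6a5 (chr9:105960644-105960793, minus strand) are given because Col3a1 and Col8a1 were among the abundant chains that varied widely between mice and Col6a5 was the chain that passed the genotype test. No GENCODE exon overlaps them. The motifs were searched on both strands and are in capitals where found. They are the GC box, the CCAAT box and the letters TATAAA of a TATA box.
Col3a1: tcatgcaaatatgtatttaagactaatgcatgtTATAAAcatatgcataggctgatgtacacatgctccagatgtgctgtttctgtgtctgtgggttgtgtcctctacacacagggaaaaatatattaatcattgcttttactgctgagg
Col8a1: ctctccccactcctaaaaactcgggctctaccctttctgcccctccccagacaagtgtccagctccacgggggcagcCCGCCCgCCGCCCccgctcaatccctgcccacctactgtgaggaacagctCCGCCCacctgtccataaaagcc
Col6a5: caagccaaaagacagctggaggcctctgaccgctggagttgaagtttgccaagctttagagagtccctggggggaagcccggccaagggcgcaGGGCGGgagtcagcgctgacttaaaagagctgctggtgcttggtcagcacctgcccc
Over the 250 bases before the start, GGGCGG stood in 21 of the 32 windows found for 30 of the 37 chains and in 32.7% of all 32851 windows. TATAAA stood in 4 of the 32 and in 12.4% of all, and CCAAT in 11 of the 32 and in 33.8% of all. These are matches of letters only. Col12a1, Col14a1, Col1a1, Col22a1, Col26a1, Col4a3 and Col5a2 had no window.

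In WT-CD ventricles the basement membrane chains held most of the collagen transcripts per length. In RPKM (read pairs per kilobase of exon scaled to library size, from TMM-scaled counts), Col4a1 stood at 43.1 ± 6.46 and Col4a2 at 42.1 ± 5.29 (SD, n = 5), a difference well within their spread. Col6a1, a chain of the beaded filaments around cells, followed at 14.4 ± 4.36. Col1a2, Col3a1 and Col1a1, the chains of the main interstitial fibrils, stood at 10.6 ± 3.84, 10.6 ± 5.78 and 10.2 ± 5.47 and could not be ordered. The 6 basement membrane chains made up 53.0% of the RPKM summed over all 37 chains, the 9 fibrillar chains 22.5% and the 22 others 24.5%. The length used was the union of all annotated exons of a gene, such as 12426 bases for Col1a2 and 7464 for Col4a1. Order and shares by RPKM therefore depend on the annotation. Of all counts in a mouse, the 37 chains took 0.134% ± 0.0362 in WT-CD (n = 5), 0.262% ± 0.265 in R403Q-CD (n = 7), 0.152% ± 0.0437 in R403Q-EMPA (n = 4) and 0.118% ± 0.00900 in WT-EMPA (n = 5). The spread of the R403Q-CD group exceeded its mean, and 1 library lay far above the others.

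That library, R403Q-CD mouse 2, must be described before any contrast. Collagen chains took 0.851% of its counts, against a group median of 0.154%, and it was also the deepest library, with 43539684 counts. Its values are given apart below, and results that rest on it are given with and without it. The plot of chain levels by mouse shows its position.

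**Figure D1:**
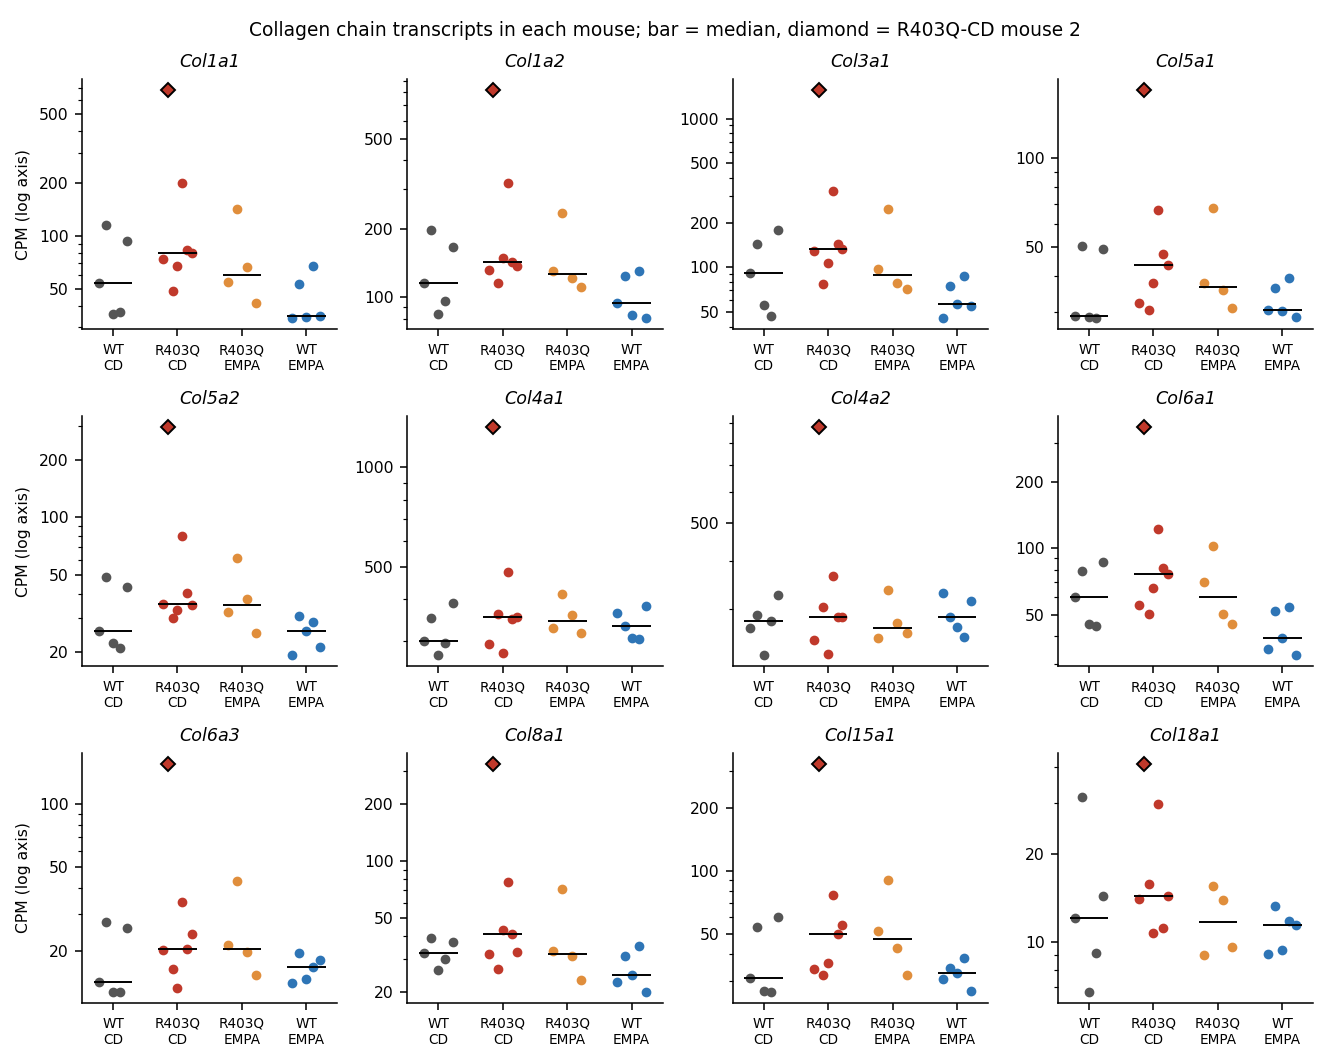
CPM (TMM-scaled counts relative to library size, log axis) of 12 collagen chains in every mouse of the 4 groups, with a bar at each group median and a black-edged diamond for R403Q-CD mouse 2. That mouse is the highest of all 21 in each panel, at 1549 CPM for Col3a1 and 1323 CPM for Col4a1, and the other R403Q-CD mice overlap the WT-CD range.

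The fibrillar chains of mouse 2 stood several-fold above those of its group. Col3a1, the type III chain of compliant fibrils, was at 1549 CPM in mouse 2, 11.8 times the median of the other 6 R403Q-CD mice (131 CPM), which ranged from 76.8 to 324 CPM. Col1a1, the major type I chain, was at 681 CPM against 48.5 to 201 CPM in the other 6, and Col5a2, a type V chain that helps set fibril diameter, at 295 CPM against 29.8 to 79.9 CPM. Mouse 2 was the highest of all 21 mice for 8 of the 9 fibrillar chains and over 3 times the median of the other 6 R403Q-CD mice for 8. The fold over the other 6 mice ran from 0.948 for Col11a2 to 15.7 for Col11a1, with a median of 5.86.

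Among the basement membrane chains the pairs behaved unequally in mouse 2. Col4a1 and Col4a2, which share the overlapping start shown above, were at 3.77 and 3.06 times the median of the other 6. Col4a3 and Col4a4, the pair with the 71-base interval, were at 1.26 and 0.896 times. Col4a5 and Col4a6 were at 1.80 and 1.49 times. Thus 3 of the 6 chains were the highest of 21 mice, and 2 of 6 exceeded 3-fold.

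The other 22 chains divided in the same library. Mouse 2 held the highest value for 15 of them, with Col8a1 (a short chain network collagen) at 8.92 times, Col6a3 (the largest beaded filament chain) at 7.69 times and Col15a1 (a multiplexin at basement membranes) at 7.47 times the median of the other 6. By contrast Col6a6 was the lowest of all 21 mice there, at 10.2 CPM and 0.673 times the median of the others. The transmembrane chains Col23a1, Col25a1 and Col17a1 were at 0.547, 0.601 and 0.873 times, while the remaining transmembrane chain, Col13a1, was at 1.16 times. Over all 37 chains, mouse 2 was highest for 26 (70.3%) and above 3-fold for 23 (62.2%), while it was highest for 3458 and above 3-fold for 421 (2.56%) of the 16442 genes with a mean count of 10 or more, whose median fold was 0.994. Col9a2 reached that mean count only through mouse 2 (8.15 over the other 20 mice). With the mean taken over those 20, a choice made after seeing the data, mouse 2 was highest for 25 and above 3-fold for 22 of 36 chains, and above 3-fold for 377 (2.31%) of 16350 genes.

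**Figure D2:**
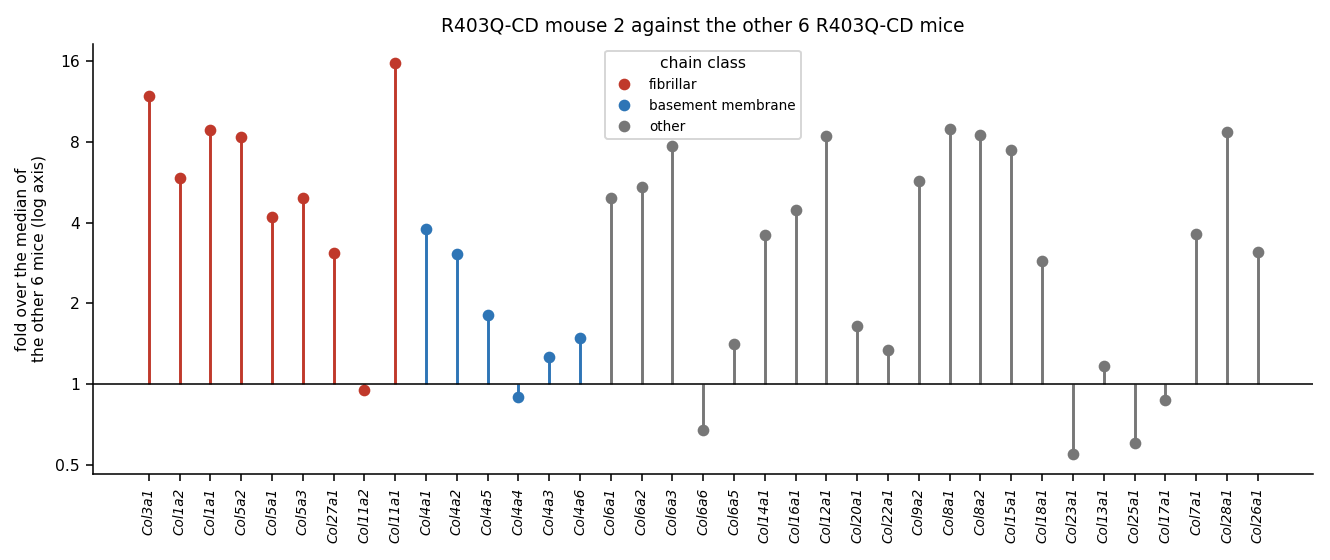
Level of each of the 37 collagen chains in R403Q-CD mouse 2 as a fold over the median CPM of the other 6 R403Q-CD mice (log axis), colored by class. Most fibrillar chains lie between 3-fold and 16-fold, Col4a3 and Col4a4 lie near 1, and Col6a6, Col23a1 and Col25a1 lie below 1.

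Other transcripts stood apart in mouse 2 as well. The summed atrial markers (Myl7, Sln, Myl4, Bmp10 and Dkk3) reached 722 CPM there against 10.9 to 187 CPM in the other 6, although Bmp10 was listed at 0. Atrial marker sums were also high in WT-CD mice 5 (294 CPM) and 2 (135 CPM), the pair with the highest levels of Col3a1, Col1a1, Col1a2, Col5a1 and Col5a2 in that group, against 8.45 to 25.0 CPM in the other 3. They were 187 CPM in R403Q-CD mouse 6, whose Col3a1 level was 144 CPM, 89.5 CPM in R403Q-CD mouse 5, and 56.0 CPM in R403Q-EMPA mouse 2, the highest of its group. In WT-EMPA the highest sum was 84.3 CPM in mouse 1, which had the lowest Col3a1 and Col1a1 of that group. Nppa, which encodes the atrial natriuretic peptide and is raised in stressed ventricle, was at 10.6 times the median of the other 6. The 8 cardiomyocyte markers summed to 0.653 times that median and the 9 endothelial markers to 0.995 times. The 10 general fibroblast markers summed to 1.38 times, the activated fibroblast markers to 3.21 times and the macrophage markers to 1.51 times. Their part in the collagen levels of mouse 2 was not tested.

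Mouse 2 was not the only mouse in which many chains were high together. R403Q-CD mouse 5 was the runner-up of the 7 R403Q-CD mice for 28 of the 37 chains and the highest for 5. Its epicardial markers summed to 61.7 CPM against 8.59 to 29.1 CPM in the other 6, and its levels of the smooth muscle genes Myh11 (237 CPM), Tagln (176 CPM) and Cnn1 (27.4 CPM) were the highest of the group, although its summed pericyte and smooth muscle markers, 1558 CPM, were close to those of mouse 3 (1539 CPM). Their part in its collagen levels was not tested. R403Q-EMPA mouse 2 was the highest of its 4 mice for 27 chains, WT-CD mouse 2 the highest of 5 for 24 and WT-EMPA mouse 2 the highest of 5 for 17. Mice are numbered in accession order, so that a shared number carries no meaning.

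The comparison of R403Q-CD with WT-CD asks what the mutation alone was associated with. Of the 37 chains, 32 had a higher fitted level in R403Q-CD, and 1 passed the test (Col6a5, higher; edgeR quasi-likelihood, Benjamini-Hochberg adjusted p under 0.05), which is 2.70% of the chains beside 0.576% of all 17025 genes tested. With DESeq2 the count of chains stayed at 1, beside 4.77% of the 16899 genes it tested. The median log2 fold change was 0.76 over the chains and 0.01 over all genes. Without adjustment, 11 chains had p under 0.05, or 29.7%, beside 19.6% of all genes. These 11 were Col3a1, Col1a1, Col1a2, Col5a2, Col5a3, Col6a5, Col8a1, Col16a1, Col20a1, Col7a1 and Col28a1. Without R403Q-CD mouse 2 the median over the 36 chains then tested (Col9a2 no longer passed the filter) was 0.26, and 3 chains (8.33%) had an unadjusted p under 0.05, beside 16.6% of all genes.

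Col6a5, a beaded filament chain at chr9:105856078-105960643 (minus strand) and one of the less abundant chains, rose with the mutation. It was at 0.275, 0.433, 0.713, 1.25 and 1.40 CPM in the WT-CD mice, and in R403Q-CD the lowest, median and highest were 2.24, 3.81 and 7.70 CPM. The R403Q-CD mice all lay above every WT-CD mouse. No other of the 37 chains separated these groups upward, which makes 2.70% of the chains beside 1.13% of all genes tested. The log2 fold change was 2.29 ± 0.49 (SE), with an edgeR adjusted p of 0.0459. In contrast to the fibrillar chains, Col6a5 hardly depended on mouse 2, with a log2 fold change of 2.24 and an adjusted p of 0.0370 without it. With cage as a factor the change was 2.26 and its adjusted p 0.0651, and leaving out WT-CD mouse 1, 2, 3, 4 or 5 or R403Q-CD mouse 4, 5 or 7 gave changes from 2.06 to 2.57 with adjusted p between 0.0560 and 0.137. Col6a6, its neighbor on chromosome 9, had a median of 13.0 CPM in WT-CD and 15.0 CPM in R403Q-CD, with overlapping groups.

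**Figure D3:**
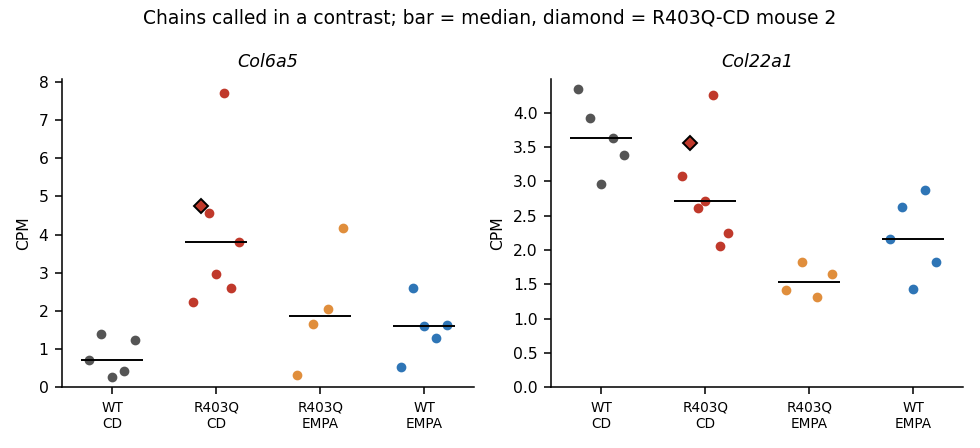
CPM (linear axis from 0) of Col6a5 and Col22a1 in every mouse of the 4 groups, with a bar at each median and a diamond for R403Q-CD mouse 2. For Col6a5 the 7 R403Q-CD mice, from 2.24 to 7.70, lie above the 5 WT-CD mice, and for Col22a1 the 4 R403Q-EMPA mice, from 1.31 to 1.83, lie below all CD mice.

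No fibrillar chain passed the test, although 8 of 9 had higher fitted levels in R403Q-CD. Col3a1 was at 47.1, 56.0, 92.1, 144 and 178 CPM in WT-CD, and its lowest, median and highest R403Q-CD values were 76.8, 133 and 1549 CPM. Col1a1 was at 35.9, 36.5, 53.8, 93.5 and 116 CPM in WT-CD, and at 48.5, 79.9 and 681 CPM (lowest, median, highest) in R403Q-CD. In both chains the groups overlapped, and most R403Q-CD mice fell inside the WT-CD range. The log2 fold changes were 1.76 ± 0.71 (SE) for Col3a1 and 1.40 ± 0.62 for Col1a1 (edgeR adjusted p = 0.192 and 0.228). Without mouse 2 they were 0.56 ± 0.41 and 0.46 ± 0.39 (adjusted p = 0.527 and 0.595), and with cage as a factor and all mice they were 1.39 and 1.21.

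The remaining named fibrillar chains had mice 2 and 5 at the top of R403Q-CD as well. Col1a2, the partner of Col1a1 in type I collagen, was at 84.4, 95.8, 115, 165 and 196 CPM in WT-CD and at 115, 143 and 817 CPM (lowest, median, highest) in R403Q-CD. Col5a1, the main type V chain, was at 28.7, 29.0, 29.2, 49.3 and 50.4 CPM in WT-CD and at 30.7, 43.5 and 170 CPM in R403Q-CD. Col5a2 was at 20.9, 22.3, 25.5, 43.6 and 48.8 CPM in WT-CD and at 29.8, 35.4 and 295 CPM in R403Q-CD. All 3 overlapped between the groups, and within WT-CD the same 2 mice, 2 and 5, gave the upper pair of values. Their log2 fold changes were 0.98, 0.72 and 1.28, and 0.33, 0.21 and 0.39 without mouse 2, none of them past the test. Over the 9 fibrillar chains the median was 0.98 with all mice and 0.33 without mouse 2. Col11a2 was the fibrillar chain with a lower fitted level (log2 fold change −0.34, adjusted p = 0.574).

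Of the basement membrane chains, Col4a1 and Col4a2 are the most abundant. Col4a1 was at 271, 295, 300, 351 and 390 CPM in WT-CD and at 275, 352 and 1323 CPM (lowest, median, highest) in R403Q-CD. Col4a2 was at 229, 268, 280, 290 and 326 CPM in WT-CD and at 231, 287 and 877 CPM in R403Q-CD. Apart from mice 2 and 5, the R403Q-CD mice lay within the WT-CD range for both. Log2 fold changes were 0.61 ± 0.32 (SE) and 0.42 ± 0.27, and 0.13 ± 0.13 and 0.05 ± 0.11 without mouse 2. None of the 6 chains passed the test or reached an unadjusted p of 0.05, and the changes of Col4a3 and Col4a4 were −0.06 and 0.07.

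Of the other chains, Col6a1, Col6a2 and Col6a3 are the type VI chains of the classical beaded filaments. Col6a1 was at 44.2, 45.4, 60.4, 78.7 and 86.2 CPM in WT-CD and at 50.2, 76.2 and 353 CPM (lowest, median, highest) in R403Q-CD. Col6a2 was at 38.7, 44.9, 49.9, 75.7 and 76.1 CPM and at 47.2, 64.9 and 347 CPM. Col6a3 was at 12.7, 12.7, 14.2, 25.5 and 27.3 CPM and at 13.3, 20.4 and 156 CPM. The groups overlapped in all 3, and the log2 fold changes of 0.87, 0.92 and 1.14 were 0.26, 0.25 and 0.21 without mouse 2.

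Col8a1, a short chain collagen of vessel walls and remodeled matrix, was at 26.2, 29.9, 32.2, 36.9 and 39.0 CPM in WT-CD and at 26.6, 40.7 and 328 CPM (lowest, median, highest) in R403Q-CD. Col15a1 was at 26.5, 26.8, 30.9, 53.8 and 60.0 CPM in WT-CD and at 32.0, 50.2 and 323 CPM in R403Q-CD. Col18a1, the multiplexin that is the precursor of endostatin, was at 6.75, 9.19, 12.2, 14.4 and 31.4 CPM in WT-CD and at 10.7, 14.4 and 40.8 CPM in R403Q-CD. All 3 overlapped between the groups. Their log2 fold changes were 1.34, 1.14 and 0.40, and without mouse 2 they were 0.36, 0.26 and 0.11. Col20a1, a FACIT chain, changed by 0.54 ± 0.21 (SE) on the log2 scale (adjusted p = 0.185) and kept 0.43 without mouse 2 (adjusted p = 0.297). The chains with the smallest p among those lower in R403Q-CD were Col22a1 (−0.31, adjusted p = 0.311), Col11a2 and Col25a1 (−0.14, adjusted p = 0.810).

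**Figure D4:**
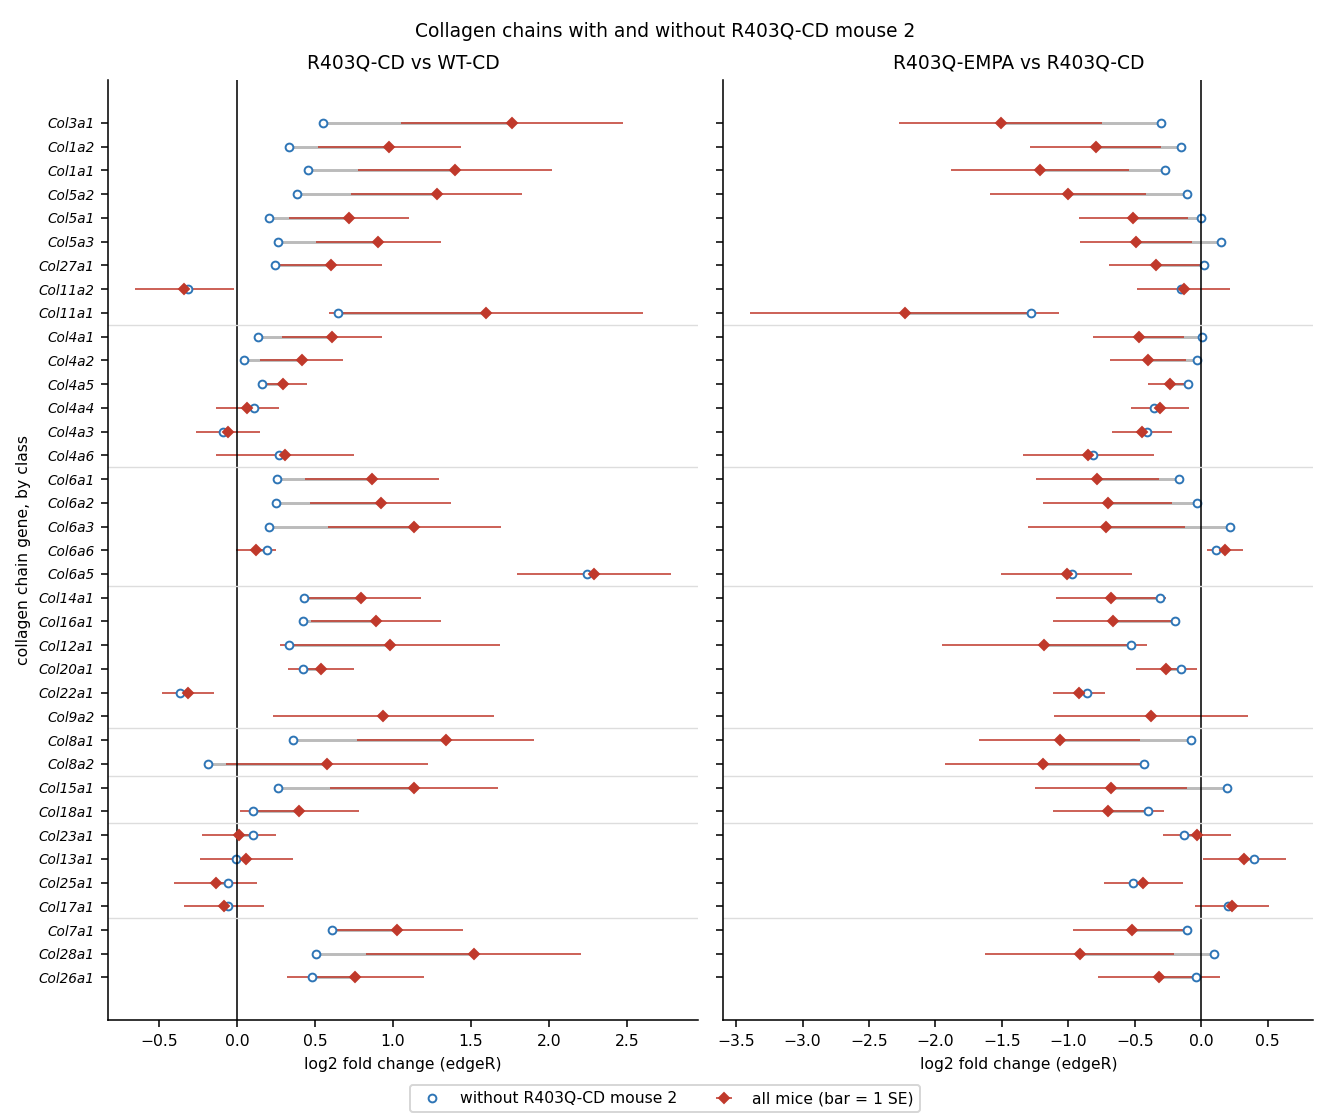
Log2 fold changes of the 37 collagen chains by class, for R403Q-CD against WT-CD and R403Q-EMPA against R403Q-CD, with all mice (diamonds, bars 1 SE) and without R403Q-CD mouse 2 (open circles; Col9a2 has none). Most chains move toward 0 in both panels without that mouse, while Col6a5 and Col22a1 stay nearly in place. Some other chains also move little, among them Col4a3, Col4a4 and Col4a6 in the EMPA panel.

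The comparison of R403Q-EMPA with R403Q-CD asks what the drug diet was associated with in mutant hearts. Fitted levels were lower with EMPA for 34 of the 37 chains, and the median log2 fold change was −0.67, beside −0.004 over all genes. None of the chains passed the test by edgeR, where 0% of the 17025 genes tested did. With edgeR 1 chain, Col22a1, had an unadjusted p under 0.05, which is 2.70% of the chains beside 12.5% of all genes. DESeq2 called 1 chain, Col22a1 (adjusted p = 0.00513), beside 0.767% of the genes it tested. Both this contrast and the previous one use the R403Q-CD mice, mouse 2 included, so that opposite directions in them are not independent. Without mouse 2, 26 of 36 chains were lower and the median was −0.14.

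Col22a1, a FACIT chain of tissue junctions such as those between muscle and tendon (chr15:71795795-72034227, minus strand), separated the diets. It was at 1.31, 1.42, 1.66 and 1.83 CPM in R403Q-EMPA, and its lowest, median and highest R403Q-CD values were 2.05, 2.71 and 4.26 CPM. Every EMPA-fed R403Q mouse lay below every CD-fed one, which held for 1 of the 37 chains (2.70%) and for 0.67% of all genes. The log2 fold change was −0.92 ± 0.19 (SE), with an edgeR adjusted p of 0.118, and −0.86 without mouse 2 (adjusted p = 0.0935). WT mice gave lower values with EMPA too, as described below.

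The fibrillar chains had lower means with EMPA but overlapped. Col3a1 was at 72.0, 79.1, 97.7 and 245 CPM in the 4 R403Q-EMPA mice, and Col1a1 was at 41.5, 54.2, 66.2 and 143 CPM. These values cover much of the R403Q-CD range apart from mice 2 and 5. Their log2 fold changes were −1.51 ± 0.77 (SE) and −1.21 ± 0.67 (edgeR adjusted p = 0.433 and 0.475), and −0.30 ± 0.43 and −0.27 ± 0.42 without R403Q-CD mouse 2. Col1a2 was at 110, 121, 130 and 235 CPM, Col5a1 at 30.9, 35.8, 37.6 and 67.8 CPM and Col5a2 at 25.0, 32.2, 37.6 and 61.5 CPM. In each of these 5 chains R403Q-EMPA mouse 2 was the highest treated mouse. Over the 9 fibrillar chains the median was −0.79 with all mice and −0.15 without R403Q-CD mouse 2, and 3 of the 9 were then positive.

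No basement membrane chain or other chain passed the test between R403Q-EMPA and R403Q-CD. Col4a1 was at 316, 328, 358 and 414 CPM in R403Q-EMPA and Col4a2 at 253, 261, 277 and 336 CPM. Both sets lie inside the R403Q-CD range, with log2 fold changes of −0.47 and −0.40, which were 0.01 and −0.03 without R403Q-CD mouse 2. The changes of Col4a3, Col4a4 and Col4a6, −0.45, −0.31 and −0.85, were −0.41, −0.35 and −0.81 without it. Over the 6 basement membrane chains the median was −0.42 with all mice. Without mouse 2 it was −0.23, with 5 of the 6 lower. Col6a1 was at 45.2, 50.5, 70.1 and 102 CPM, Col6a2 at 43.4, 46.6, 64.5 and 111 CPM and Col6a3 at 15.2, 19.7, 21.1 and 43.2 CPM. Their log2 fold changes were −0.78, −0.70 and −0.71, and −0.17, −0.04 and 0.22 without mouse 2. Col8a1 was at 23.3, 31.1, 33.0 and 71.1 CPM, Col15a1 at 32.0, 42.8, 51.9 and 90.2 CPM and Col18a1 at 9.01, 9.59, 13.9 and 15.6 CPM. Their changes of −1.06, −0.68 and −0.70 became −0.08, 0.19 and −0.40 without mouse 2. Col6a5 was at 0.328, 1.66, 2.05 and 4.16 CPM in R403Q-EMPA, overlapping R403Q-CD (log2 fold change −1.01 ± 0.49, adjusted p = 0.412, and −0.98 without mouse 2). The 3 chains that were higher with EMPA, the transmembrane chains Col13a1 and Col17a1 and the beaded filament chain Col6a6, changed by 0.33, 0.23 and 0.18 (adjusted p = 0.706, 0.764 and 0.619).

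Treated mutants were also set against untreated wild types. In R403Q-EMPA against WT-CD, 1 of the 37 chains passed the edgeR test (2.70%, beside 0.493% of the 17025 genes tested). With DESeq2 the count of chains stayed at 1, beside 2.49% of the 16899 genes it tested. By edgeR the chain was Col22a1, which fell, with a log2 fold change of −1.23 ± 0.21 (SE) and an adjusted p of 0.0123. The WT-CD mice were at 2.96, 3.39, 3.63, 3.92 and 4.34 CPM, above every R403Q-EMPA value. Without R403Q-EMPA mouse 3 the change was −1.15 and its adjusted p 0.0633, and the other 8 mice could be left out one by one without losing the call. Over the 37 chains 26 were higher than in WT-CD, with a median of 0.19 beside 0.01 over all genes. Col6a5, Col6a6 and Col20a1 had the smallest p among these (log2 fold changes 1.28, 0.30 and 0.28, adjusted p = 0.346, 0.418 and 0.720). Among the lower chains, Col4a3 and Col25a1 came after Col22a1 (−0.50 and −0.57, adjusted p = 0.417 and 0.496).

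In wild-type hearts, WT-EMPA against WT-CD gave no chain past the edgeR test, beside 0.0289% of the 17309 genes tested. Unadjusted, 2 chains (5.41%) had p under 0.05, beside 1907 of the 17309 genes, and DESeq2 called 1, Col22a1 (adjusted p = 0.0499), beside 0.737% of the genes it tested. Col22a1 was at 1.43, 1.82, 2.17, 2.63 and 2.88 CPM in WT-EMPA, below every WT-CD mouse, with a log2 fold change of −0.74 ± 0.20 (SE) and an edgeR adjusted p of 0.188. Col8a2, the partner short chain of Col8a1, likewise did not overlap, at 0.281 to 0.547 CPM against 0.632 to 2.96 CPM (log2 fold change −1.73 ± 0.71, adjusted p = 0.371). These 2 chains without overlap are 5.41% of the 37, beside 1.59% of all genes. The median over the chains was −0.29, and 26 of 37 were lower.

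No fibrillar chain of the WT-EMPA mice passed the test, and 7 of the 9 had lower fitted levels than in WT-CD. Col3a1 was at 45.6, 54.9, 56.5, 74.4 and 87.9 CPM, Col1a1 at 33.9, 34.4, 34.7, 52.8 and 67.0 CPM and Col1a2 at 80.6, 83.0, 93.7, 123 and 130 CPM. Col5a1 was at 29.0, 30.4, 30.6, 36.2 and 39.2 CPM and Col5a2 at 19.2, 21.2, 25.5, 28.6 and 30.6 CPM. In these 5 chains none exceeded the highest WT-CD mouse, and the groups overlapped. Col5a3 and Col27a1 had higher means in WT-EMPA (7.14 ± 1.22 and 5.97 ± 1.11 CPM) than in WT-CD (6.31 ± 1.26 and 5.36 ± 1.58 CPM; SD, n = 5 each). Col4a1 ran from 304 to 382 CPM and Col4a2 from 255 to 331 CPM, also within or near the WT-CD range. Col6a1 ran from 32.8 to 54.2 CPM, Col6a2 from 34.5 to 51.4 CPM, Col6a3 from 14.1 to 19.5 CPM, Col8a1 from 20.1 to 35.3 CPM, Col15a1 from 26.8 to 38.6 CPM and Col18a1 from 9.13 to 13.3 CPM. Col6a5 was at 0.527, 1.29, 1.59, 1.63 and 2.601 CPM (log2 fold change 0.87 ± 0.52, adjusted p = 0.553). Col6a6 and Col7a1 were the other chains with the smallest p among the higher ones (0.24 and 0.42, adjusted p = 0.550 and 0.757), and Col11a2 among the lower ones (−0.66, adjusted p = 0.465).

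Between genotypes on EMPA, 31 of 37 chains were higher in R403Q-EMPA than in WT-EMPA, with a median log2 fold change of 0.40, and no chain passed the edgeR test, beside 0.0578% of the 17309 genes tested. DESeq2 called none of the chains either, beside 1.78% of the genes it tested. With edgeR 1 chain (2.70%), Col22a1, had an unadjusted p under 0.05 (log2 fold change −0.49, adjusted p = 0.297), beside 14.7% of all genes. Col14a1, Col9a2 and Col6a1 had the smallest p among the higher chains (0.67, 1.30 and 0.65, adjusted p = 0.462, 0.465 and 0.501), and Col25a1 and Col23a1 came next among the lower ones (−0.20 and −0.10, adjusted p = 0.783 and 0.903). Col6a5, which separated the genotypes on CD, overlapped between them on EMPA (log2 fold change 0.40 ± 0.52, adjusted p = 0.740).

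The interaction of genotype and diet, which tests whether the diet difference itself differed between the genotypes, called none of the chains and 0% of the 17309 genes tested, and DESeq2 called none of the chains and 0% of the genes it tested. Col6a5 was the 1 chain (2.70%) with an unadjusted edgeR p under 0.05 (its adjusted p was 0.999), beside 3.28% of all genes, with an interaction of −1.88 ± 0.71 (SE) on the log2 scale and −1.84 without R403Q-CD mouse 2. For Col22a1 the interaction was −0.18 ± 0.28. Over the 37 chains the median interaction was −0.24 with all mice and 0.18, of the opposite sign, without mouse 2. Next by p among the negative interactions were Col7a1 and Col20a1 (−0.94 and −0.43), and among the positive ones Col17a1, Col11a2 and Col13a1 (0.50, 0.52 and 0.27), all with adjusted p = 0.999.

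Ratios of partner chains within a mouse gave no difference past the test. The log2 ratio of Col1a1 to Col1a2 counts, whose chains combine in type I collagen, was −1.06 ± 0.27 (SD) in the 5 WT-CD mice and −0.81 ± 0.32 in the 7 R403Q-CD mice, a difference of 0.25 (exact two-sided permutation p = 0.211). The log2 ratio of Col1a1 to Col3a1 was −0.61 ± 0.26 and −0.79 ± 0.18, a difference of −0.19 (exact permutation p = 0.181). The log2 ratio of Col4a1 to Col4a2 was 0.20 ± 0.09 and 0.33 ± 0.13, a difference of 0.13 (exact permutation p = 0.0934). In R403Q-EMPA the ratios were −1.06 ± 0.32, −0.67 ± 0.28 and 0.33 ± 0.05 (SD, n = 4), which differed from R403Q-CD by −0.25, 0.12 and 0.004 (exact permutation p = 0.212, 0.485 and 0.961). In WT-EMPA they were −1.22 ± 0.18, −0.54 ± 0.14 and 0.21 ± 0.06 (SD, n = 5), which differed from WT-CD by −0.16, 0.07 and 0.008 (exact permutation p = 0.302, 0.627 and 0.865). R403Q-CD mouse 2 was extreme in its group for all 3 ratios, at −0.262, −1.186 and 0.593. Without it the R403Q-CD differences from WT-CD were 0.155, −0.120 and 0.0828, and those of R403Q-EMPA from R403Q-CD were −0.159, 0.0577 and 0.0479. The smallest Benjamini-Hochberg value over these 9 exact permutation tests was 0.477.

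Among the 7 R403Q-CD mice, chain levels were set against Nppa. On the log2 CPM scale Pearson's r with Nppa was 0.963 for Col1a1, 0.951 for Col3a1, 0.919 for Col4a1 and 0.967 for Col8a1 (n = 7, exact permutation p = 0.0131, 0.0149, 0.0189 and 0.00417, adjusted over the 4 relations 0.0189, 0.0189, 0.0189 and 0.0167). Spearman's rho was 0.536, 0.536, 0.607 and 0.821 (exact permutation p = 0.236, 0.236, 0.167 and 0.0341, adjusted 0.236, 0.236, 0.236 and 0.137). Without mice 2 and 5, the 2 mice farthest from the median Nppa level, r was 0.0287, −0.0743, −0.490 and 0.486 over the remaining 5. The high Pearson r therefore comes largely from those 2 mice, as the plot of chains against Nppa shows, although Col8a1 kept 0.486. Leaving them out also narrows the range of Nppa, which by itself lowers r, so that the other 5 mice cannot decide the relation.

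**Figure D5:**
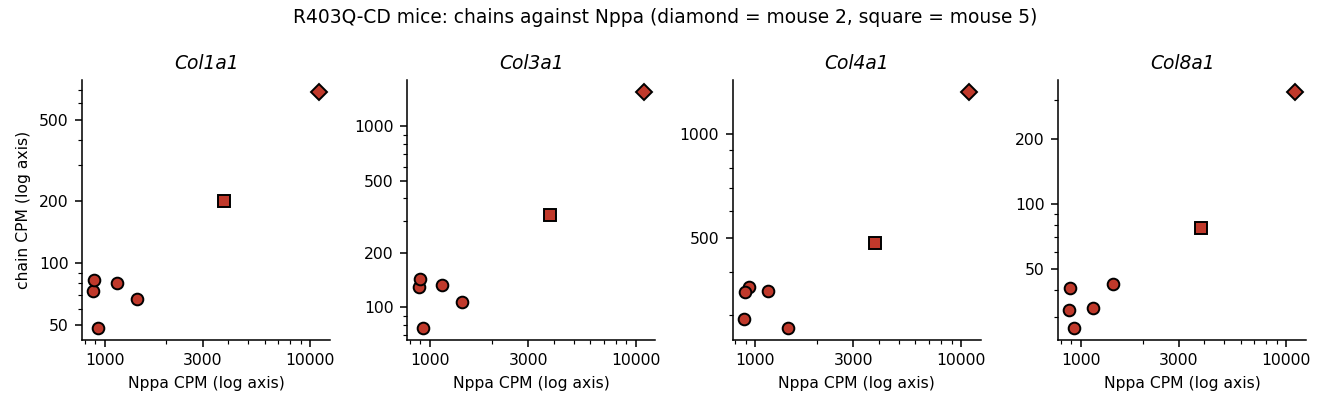
CPM of Col1a1, Col3a1, Col4a1 and Col8a1 against CPM of Nppa (log axes) in the 7 R403Q-CD mice, with mouse 2 as a diamond and mouse 5 as a square. The other 5 mice form a cluster at low Nppa within which r runs from −0.490 to 0.486.

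The genes that fold, secrete, crosslink and degrade collagen were followed as well. For R403Q-CD against WT-CD none of the 23 folding and modification genes passed the edgeR test, with 5 at an unadjusted p under 0.05 and a median log2 fold change of 0.08, beside 0.01 over all genes. Without mouse 2 the median was 0.00 over the 22 then tested, and the change of Serpinh1, the collagen chaperone, went from 0.22 to 0.001. The share of all genes at an unadjusted p under 0.05 in this contrast was 19.6%, against which the counts of this list and the next ones are to be read. Smallest in p were P3h4, part of a lysyl hydroxylase complex, and P4ha2, a prolyl hydroxylase subunit (−0.27 and −0.23, adjusted p = 0.0856 and 0.0966), neither of which depended on mouse 2 (−0.28 and −0.22 without it). None of the 13 processing and crosslinking genes passed, with 2 at an unadjusted p under 0.05. These were the lysyl oxidases Loxl1 and Loxl2, which crosslink collagen (0.86 and 1.18, adjusted p = 0.229 and 0.235, and 0.34 and 0.27 without mouse 2). The list's median was 0.51, and 0.13 without mouse 2.

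None of the 16 collagen breakdown genes passed, with 6 at an unadjusted p under 0.05. Timp1, an inhibitor of matrix metalloproteinases, was at 75.9 CPM in mouse 2 and from 1.91 to 9.92 CPM in the other 6 R403Q-CD mice, with a log2 fold change of 2.95 ± 0.99 (SE) against WT-CD (adjusted p = 0.133) and 1.04 without mouse 2. Mmp14, a membrane collagenase, changed by 0.95 (adjusted p = 0.150), and by 0.46 without mouse 2. Of 8 receptor genes tested none passed or had an unadjusted p under 0.05, the smallest p being those of the inhibitory collagen receptor Lair1 and the integrin subunit Itga1 (0.57 and 0.14, adjusted p = 0.310 and 0.370). Of 11 profibrotic signal genes tested none passed, with 5 at an unadjusted p under 0.05. Agtr1a, the angiotensin II receptor, was lower (−0.38, adjusted p = 0.120) and Tgfb2, a TGF-beta ligand, was higher (1.12, adjusted p = 0.156, and 0.58 without mouse 2).

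With EMPA in R403Q mice none of the genes of these lists passed the edgeR test. By list, an unadjusted p under 0.05 was reached by 2 folding and modification, 1 processing, 1 breakdown, 1 receptor and 3 signal genes, of 23, 13, 16, 8 and 11 tested, beside 12.5% of all genes. P3h4 changed by 0.36 (adjusted p = 0.120) and Plod2, a lysyl hydroxylase, by −0.38 (adjusted p = 0.259). Tll2, a protease gene of the tolloid family at only 0.150 to 2.85 CPM over all mice, changed by 1.41 and Loxl2 by −1.05 (adjusted p = 0.325 and 0.476). The collagenolytic protease gene Ctsk and Timp3 changed by −0.94 and −0.15 (adjusted p = 0.368 and 0.508), the collagen receptor Ddr2 and Itga1 by 0.26 and −0.16 (adjusted p = 0.314 and 0.471), and Tgfbr2 and Tgfb2 by 0.26 and −1.12 (adjusted p = 0.250 and 0.326). Loxl2, Tgfb2 and Ctsk moved to −0.14, −0.57 and −0.41 without R403Q-CD mouse 2.

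Markers of the cells that could contribute collagen were followed too. All 10 fibroblast markers had higher fitted levels in R403Q-CD than in WT-CD, with a median log2 fold change of 0.31 and 0.29 without mouse 2, and their summed level ran from 2141 to 3534 CPM in WT-CD, 2637 to 4293 in R403Q-CD, 3343 to 3561 in R403Q-EMPA and 2284 to 3093 in WT-EMPA. None passed the test. Of the 8 activated fibroblast markers tested, 7 were higher (median 0.94, and 0.44 without mouse 2), and all 8 were lower with EMPA in R403Q mice (median −0.95), none past the test. Without mouse 2 the latter median was −0.41 over the 7 then tested, of which Tnc (0.77) and Fap (0.002) were positive. Macrophage markers were higher in R403Q-CD in all 6 cases, and Csf1r, the receptor of a macrophage growth factor, passed the test (log2 fold change 0.46, edgeR adjusted p = 0.0400), 1 of 6 beside 0.576% of all genes. It was 0.40 without mouse 2 (adjusted p = 0.0239) and 0.45 with cage as a factor (adjusted p = 0.0650). With the 2 groups alone in the fit it was 0.46 (adjusted p = 0.0930), and it lost the call without any of WT-CD mice 1 to 4 or R403Q-CD mice 4 to 7 (adjusted p from 0.0503 to 0.129).

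Atrial and epicardial marker sums varied widely among mice. Summed atrial markers ran from 8.45 to 294 CPM in WT-CD, 10.9 to 722 in R403Q-CD, 4.85 to 56.0 in R403Q-EMPA and 4.28 to 84.3 in WT-EMPA, and all 4 tested were lower with EMPA in both genotypes, none past the test. Epicardial markers summed to between 5.09 and 61.7 CPM, cartilage and valve markers to between 2.83 and 12.1 CPM and Schwann cell markers to between 12.2 and 25.4 CPM over all mice. Pericyte and smooth muscle markers summed to between 1128 and 1736 CPM and endothelial markers to between 1045 and 1546 CPM. The 8 cardiomyocyte markers summed to between 62294 and 109001 CPM, so that every library held abundant heart muscle transcripts. Of the 12 clock genes tested, whose levels follow the time of day, 11 had an unadjusted p under 0.05 between R403Q-EMPA and R403Q-CD and 9 between WT-EMPA and WT-CD, beside 2123 of 17025 and 1907 of 17309 genes in all, none past the test. Their part in the diet contrasts of the chains was not tested.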

How the data were processed

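Bulk RNA-seq libraries of the left ventricle of 21 mice were used. The gene counts were deposited as raw counts, which per the labels and methods the authors made with STAR 2.6.0c and featureCounts (Subread 1.6.2) on mm10, after quality control with FastQC 0.11.7. The deposited log2 variance-stabilized values were made by the authors with DESeq2 1.32.0 and served only for the alternative with limma and for an alternative of the ratios. No column of the tables was left without a sample (0 unused columns). Libraries held 23491535 to 43539684 counts, and a floor of 3 counts was 0.0689 to 0.128 CPM, for counting error only.

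Counts were tested with edgeR 4.0.16 in R 4.3.3 (quasi-likelihood test, TMM scaling, filterByExpr with a minimum count of 10, Benjamini-Hochberg adjustment over all genes tested, threshold 0.05). R403Q-CD, WT-CD and R403Q-EMPA were fitted together for the 3 contrasts among them. All 4 groups were fitted together for the contrasts with WT-EMPA and for the interaction. The code was tested on simulated data. CPM values were scaled by TMM, with a pseudocount of 0.01 CPM before logarithms, and ratios and correlations with Nppa were tested by exact two-sided permutation. The alternatives were DESeq2 1.42.0, limma 3.58.1, other scalings, no filter, other groups in the fit, cage as a factor, and each mouse left out.

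Each library came from a separate mouse by its cage and notch labels, and mice were numbered in accession order. Chains named were the 13 abundant chains described by mouse, those past the test in any contrast, and the 3 higher and 3 lower chains with the smallest p per contrast. From each pathway list the 2 genes with the smallest p in each of the first 2 contrasts were named. The members and the lists were chosen with earlier results of these data known. Promoter windows came from RefSeq (GRCm38.p6), and gene coordinates and exons from GENCODE.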

Additional observations from a re-analysis of the deposited data

Results flagged for a closer look

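Among the chains described mouse by mouse, 1 mouse lay far from the rest of its group by Dixon's gap test in the following cases. R403Q-CD mouse 2 stood above the other 6 R403Q-CD mice at 1549 CPM for Col3a1, 817 CPM for Col1a2, 681 CPM for Col1a1, 295 CPM for Col5a2 and 170 CPM for Col5a1, the fibrillar chains. The same mouse stood apart at 1323 CPM for Col4a1 and 877 CPM for Col4a2 in the basement membrane. It also stood apart at 353 CPM for Col6a1, 347 CPM for Col6a2, 156 CPM for Col6a3, 328 CPM for Col8a1 and 323 CPM for Col15a1. R403Q-EMPA mouse 2 stood above the other 3 treated R403Q mice at 245 CPM for Col3a1 and 235 CPM for Col1a2. Over all 37 chains, 22 of 148 sets of one chain in one group held such a mouse, 16 of them R403Q-CD mouse 2, 3 R403Q-EMPA mouse 2, 2 R403Q-CD mouse 5 and 1 WT-CD mouse 2. For normally distributed values chance alone marks about 1 in 20 groups. The test used CPM without logarithms, so that this rate need not hold here, and chains of one mouse are not independent.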

How the results depend on the processing

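For R403Q-CD against WT-CD, cage as a factor left 0 chains past the test (Col6a5 2.26, adjusted p = 0.0651), and leaving out 1 mouse gave 0 to 1, with 0 without any of WT-CD mice 1 to 5 or R403Q-CD mice 4, 5 and 7. For R403Q-EMPA against WT-CD leaving out 1 mouse gave 0 to 1, with 0 without R403Q-EMPA mouse 3. The share of all genes called in R403Q-CD against WT-CD, 0.576% with all mice, ran from 0.0824% without WT-CD mouse 1 to 3.71% without R403Q-CD mouse 3. That in R403Q-EMPA against WT-CD, 0.493% with all mice, ran from 0.145% without R403Q-EMPA mouse 3 to 0.306% without WT-CD mouse 4. The other contrasts kept 0 chains whichever mouse was left out. DESeq2 called 1 chain, Col22a1, in R403Q-EMPA against R403Q-CD and 1, again Col22a1, in WT-EMPA against WT-CD. The other settings gave counts of chains within 1.5 times of those reported. Over all genes DESeq2 called 806 against 98 by edgeR in R403Q-CD against WT-CD, 421 against 84 in R403Q-EMPA against WT-CD, 139 against 0 in R403Q-EMPA against R403Q-CD, 114 against 5 in WT-EMPA against WT-CD and 297 against 10 in R403Q-EMPA against WT-EMPA.

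Without R403Q-CD mouse 2 the diet changes in R403Q mice turned sign for 7 chains, Col5a1 (0.001), Col4a1 (0.007), Col6a3 (0.219), Col15a1 (0.193), Col5a3 (0.152), Col27a1 (0.019) and Col28a1 (0.098). With 1 mouse left out at a time the ranges of the first 4 were −0.826 to 0.001, −0.573 to 0.007, −1.132 to 0.219 and −1.051 to 0.193, and −0.015 to 0.375 for Col17a1. Against WT-CD, Col11a2 in R403Q-CD ran from −0.521 to 0.069 and Col25a1 from −0.259 to 0.097. In R403Q-EMPA against WT-EMPA, Col6a5 ran from −0.157 to 0.754 and Col23a1 from −0.267 to 0.073, and Col25a1 was 0.024 with cage as a factor. None of these was past the test in either form. The cause was not tested.

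With 1 mouse left out, r with Nppa ran from 0.866 to 0.977 for Col1a1, 0.820 to 0.967 for Col3a1, 0.692 to 0.950 for Col4a1 and 0.911 to 0.982 for Col8a1, and lost significance without mouse 2 or mouse 5. Without mouse 5, r itself stayed high, at 0.962, 0.957, 0.946 and 0.982 (exact permutation, adjusted p = 0.132, 0.132, 0.132 and 0.117). For R403Q-CD against WT-CD the difference in log2 ratio ran from 0.155 to 0.322 for Col1a1 to Col1a2, −0.267 to −0.114 for Col1a1 to Col3a1 and 0.0828 to 0.145 for Col4a1 to Col4a2. Differences in the log2 ratio of Col1a1 to Col3a1 ran from −0.0144 to 0.183 (R403Q-EMPA against R403Q-CD) and −0.0112 to 0.142 (WT-EMPA against WT-CD). Those of Col4a1 to Col4a2 ran from −0.0141 to 0.0479 and −0.0247 to 0.0275.

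Mouse numbers are only names in accession order and pair no mice. The cage, which held both genotypes in all 4 CD cages and 2 of the 3 EMPA cages, entered only the alternative with cage as a factor. The main genotype contrasts had no cage term. Diet is fully confounded with cage, groups hold 4 to 7 mice, and the least abundant chains have mean counts near 10, so that small differences in them were not detectable at this depth.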
